A study of Mus musculus with 12 samples.

Results

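The genes described here are the 10 members of the MHC class II antigen presentation system that were chosen by name: the invariant chain gene Cd74, the classical chain genes H2-Aa, H2-Ab1 and H2-Eb1, the peptide editor genes H2-DMa, H2-DMb1 and H2-DMb2, its inhibitor genes H2-Oa and H2-Ob, and the coactivator gene Ciita. All 10 were found among the 24189 genes that the 10 RNA-seq libraries share. The libraries came from mice on the C57BL/6 background and fall into 5 groups of 2 libraries. Plasmablasts (PBs) were grown from splenic B cells in the iGB system, in which B cells sit on irradiated 40LB feeder cells and receive IL-4 and then IL-21, and were sorted on day 8 of culture by a gate that included CD138+ and CD23-. The PB groups are Xbp1 fl/fl cells without Cre (control PBs), Cd23-Cre Xbp1 fl/fl cells (Xbp1-deficient PBs) that had lost Xbp1 after Cre expression under Cd23 control in B cells, and Bhlha15 CreER/CreER cells, in which the insertion of CreER disrupts both copies of Bhlha15, the gene of the transcription factor Mist1. The labels name no floxed Xbp1 allele in the Bhlha15 CreER/CreER PBs, so that they may differ from the Xbp1 fl/fl PBs, which served as control for both mutants, at that gene as well. Plasma cells (PCs) were the TACI+CD138+ cells of spleens taken on day 7 after immunization with NP-KLH in alum. The PC groups are Cd23-Cre Bhlha15 fl/fl cells, which lack Mist1 (Mist1-deficient PCs), and control PCs, which the labels give as wild type and the methods of the study as Bhlha15 fl/fl. The deposited values are TPM, the share of a gene among all transcripts, which correct for gene length and scale each library to the same total, so that the number of reads behind a value is unknown.

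MHC class II molecules are pairs of an alpha and a beta chain that show peptides from the endocytic pathway to CD4+ T cells. They assemble in the ER on the invariant chain, which guides them to endosomes and leaves a peptide (CLIP) in their groove, and the H2-DM heterodimer then exchanges CLIP for other peptides, while H2-O inhibits H2-DM. Ciita does not bind DNA itself but is recruited by a protein complex of RFX, CREB and NF-Y factors to the promoters of class II genes and of Cd74, and it is known to be silenced by Blimp1 as B cells become PCs.

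The targeted genes were measured first. Bhlha15 was at 176 and 159 TPM in control PBs, 3.57 and 2.60 TPM in Xbp1-deficient PBs, 0.210 and 0.551 TPM in Bhlha15 CreER/CreER PBs, 258 and 242 TPM in control PCs, and 14.4 and 16.6 TPM in Mist1-deficient PCs. Xbp1, whose value covers reads along the whole gene and not only the floxed part, was at 1981 and 2024 TPM in Xbp1-deficient PBs against 3168 and 3043 TPM in the controls. Xbp1-deficient PBs thus also had little Bhlha15 RNA. The 8 plasma cell markers were detected in every group, but summed to 21029 and 21660 TPM in Xbp1-deficient PBs against between 38371 and 41820 TPM in the other PBs. This sum is carried by Igj and Mzb1 (3707 and 3547 TPM against 15573 and 14995 TPM in control PBs). Of the 8 markers, 4 were called lower, namely Igj, Mzb1, Tnfrsf17 (22.9 and 16.1 TPM against 32.0 and 33.2 TPM) and the targeted Xbp1 itself. Sdc1, with 157 and 157 TPM against 166 and 157 TPM, was not called. The remaining 3, Prdm1, Irf4 and Tnfrsf13b, had a higher fitted level but were not called either. The 8 markers of dendritic cells, which also express class II genes, summed to between 21.8 and 34.5 TPM in all groups. Clec9a, Siglech and Cd209a were each below 1 TPM in every library. In PBs the sum is mostly Flt3 (between 15.9 and 22.4 TPM), with some Zbtb46 and Ccr7. In PCs, Ccr7 was at between 12.6 and 21.3 TPM, Flt3 at between 5.41 and 5.80 TPM and Zbtb46 below 1 TPM. Itgax (between 2.37 and 3.52 TPM) and Xcr1 (between 1.28 and 3.01 TPM) were found in PCs but were below 1 TPM in every PB library. The part of dendritic cells in the results was not tested. The 8 macrophage and monocyte markers summed to between 134 and 167 TPM in control and Bhlha15 CreER/CreER PBs, to 32.5 and 35.6 TPM in Xbp1-deficient PBs, and to between 199 and 236 TPM in PCs, where C1qa, listed at 0 in all PB libraries, was at between 8.33 and 13.3 TPM. In PBs this sum is mostly Cd68, which was lower without Xbp1 (16.9 and 18.7 TPM against 128 and 131 TPM), while Lyz2 was higher (15.1 and 15.8 TPM against 5.86 and 5.22 TPM) and the other 6 markers were below 1 TPM. The 6 T cell markers summed to at most 13.5 TPM in PBs and to between 69.9 and 100.4 TPM in PCs. Genes of neutrophils, which lack class II, summed to 120 and 121 TPM in Xbp1-deficient PBs, to between 1.08 and 8.41 TPM in the other PBs, and to between 438 and 935 TPM in PCs, and their part in the results was not tested. The 6 fibroblast genes, which the feeder layer could supply, summed to between 947 and 1883 TPM in PBs and to between 25.3 and 31.1 TPM in PCs.

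Apart from Cd74 and from Ciita on chromosome 16, the members lie together on mouse chromosome 17. In the mm9 build and the GENCODE M1 annotation, H2-Oa spans chr17:34229285-34232179, H2-DMa chr17:34272127-34276046, H2-DMb2 chr17:34280252-34288498, H2-DMb1 chr17:34290017-34297168, H2-Ob chr17:34375848-34390850, H2-Ab1 chr17:34400154-34406363, H2-Aa chr17:34406276-34424772 and H2-Eb1 chr17:34442828-34453144. Ciita spans chr16:10480237-10527657. H2-Aa is on the minus strand and the others are on the plus strand. Exons of Cd74 overlap those of an unnamed gene entry, so that some of its reads may have been assigned there. Exons of H2-Ab1 and H2-Aa overlap on opposite strands, so that reads from this overlap can be assigned only by strand, and whether the counting used strand is not given in the sources used here. H2-DMb1 and H2-DMb2 are near-identical copies. Their coding sequences are 95.9% identical, and 27.1% of the 50-base stretches of the H2-DMb1 transcript also occur in H2-DMb2, so that the split of 50-base reads between these genes is uncertain. The other 8 members share no stretch of that length with another coding gene.

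Promoters are shown for the 3 editor genes and for the classical chain genes H2-Aa and H2-Eb1. The promoters were searched for 1 element bound by the Ciita-recruiting complex. They are RefSeq windows of the GRCm38.p6 build, from 250 bases before to 50 bases after the start, written 5′ to 3′ on the strand of the gene, with the letters TGATTGG in capitals. These letters hold the inverted CCAAT box known as the Y box, which NF-Y binds.
H2-Aa, chr17:34287774-34288073 (- strand): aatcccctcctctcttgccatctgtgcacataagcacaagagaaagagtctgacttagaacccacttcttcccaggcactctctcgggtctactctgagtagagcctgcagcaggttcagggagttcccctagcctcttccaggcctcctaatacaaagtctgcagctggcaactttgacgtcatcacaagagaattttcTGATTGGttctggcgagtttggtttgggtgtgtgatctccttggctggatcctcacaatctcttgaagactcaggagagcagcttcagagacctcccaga
H2-Eb1, chr17:34305617-34305916 (+ strand): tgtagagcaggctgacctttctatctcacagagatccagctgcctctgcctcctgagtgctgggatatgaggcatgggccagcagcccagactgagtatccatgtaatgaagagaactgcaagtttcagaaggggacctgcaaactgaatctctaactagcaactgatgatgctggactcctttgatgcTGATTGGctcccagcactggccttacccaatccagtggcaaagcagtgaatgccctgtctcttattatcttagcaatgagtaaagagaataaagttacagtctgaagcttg
H2-DMb1, chr17:34152941-34153240 (+ strand): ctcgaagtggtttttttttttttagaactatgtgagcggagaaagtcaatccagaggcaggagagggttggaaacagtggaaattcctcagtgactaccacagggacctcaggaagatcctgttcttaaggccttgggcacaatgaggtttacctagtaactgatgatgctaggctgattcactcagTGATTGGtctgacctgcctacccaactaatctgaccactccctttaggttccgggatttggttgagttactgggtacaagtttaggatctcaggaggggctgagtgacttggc
H2-DMb2, chr17:34144999-34145298 (+ strand): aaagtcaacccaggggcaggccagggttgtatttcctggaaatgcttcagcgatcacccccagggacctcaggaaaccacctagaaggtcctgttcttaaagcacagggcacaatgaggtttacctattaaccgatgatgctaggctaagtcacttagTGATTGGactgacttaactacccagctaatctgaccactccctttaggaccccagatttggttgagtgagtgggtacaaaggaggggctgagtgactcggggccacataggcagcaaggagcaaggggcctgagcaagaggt
H2-DMa, chr17:34122582-34122881 (+ strand): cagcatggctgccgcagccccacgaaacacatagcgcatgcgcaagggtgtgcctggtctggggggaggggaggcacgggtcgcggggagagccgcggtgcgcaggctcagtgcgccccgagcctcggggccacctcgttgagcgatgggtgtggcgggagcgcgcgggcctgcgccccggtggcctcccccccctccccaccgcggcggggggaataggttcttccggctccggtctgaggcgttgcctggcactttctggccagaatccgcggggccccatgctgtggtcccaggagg
The motif TGATTGG was searched on both strands. It occurs in the promoters of H2-Aa, H2-Eb1, H2-DMb1, H2-DMb2, H2-Oa and H2-Ob, where it begins 50, 61, 63, 92, 45 and 59 bases before the start, respectively, and in neither of the 2 promoters listed for H2-DMa. By the shift between the builds at the other members, however, both H2-DMa windows lie upstream of the start of its coding transcript. The sequence at that start was not searched, so that H2-DMa cannot be set against the other genes here. By comparison, 7.82% of all 32851 promoters in the RefSeq table hold it. The motif was chosen after the promoters had been seen. The promoters of H2-DMb1 and H2-DMb2 are 84.2% identical over 247 aligned bases. H2-Ab1, Cd74 and Ciita have no entry in the table.

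Across all libraries, the members covered more than 3 orders of magnitude. In PBs, Cd74 ranked 1 or 2 among all genes, with 22481 and 21592 TPM in the control PBs. H2-Aa reached 7738 and 7785 TPM there, H2-Ab1 5852 and 5962 TPM, and H2-Eb1 2888 and 2847 TPM. The classical chains thus followed the invariant chain in the order H2-Aa, H2-Ab1 and H2-Eb1, without overlap between the libraries of neighbouring genes. The editor genes were lower, at 426 and 433 TPM for H2-DMb2, 242 and 232 TPM for H2-DMa and 88.2 and 90.8 TPM for H2-DMb1. The inhibitor genes stood at 164 and 157 TPM for H2-Ob and 50.6 and 61.3 TPM for H2-Oa, and Ciita, with 12.2 and 15.3 TPM, was the lowest member. Together the members took between 3.54% and 3.99% of all TPM in the 6 PB libraries and between 1.12% and 1.26% in the 4 PC libraries. H2-Ea-ps, the defective alpha chain gene that would pair with the H2-Eb1 chain and that C57BL/6 mice do not express, was at most at 0.332 TPM in any library.

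**Figure D1:**
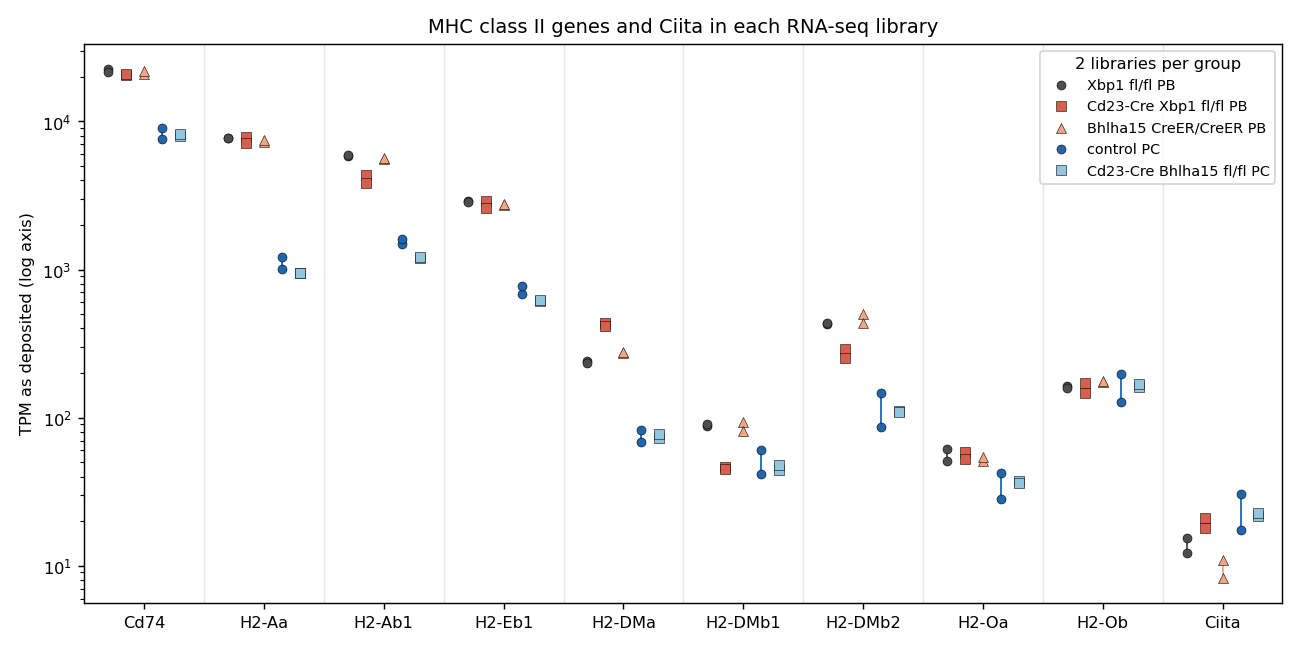
Deposited TPM values (vertical log axis) of the 10 members (horizontal axis) in each of the 10 RNA-seq libraries, with both libraries of a group joined by a line and the groups told apart by colour and symbol. The PC libraries lie below all PB libraries for Cd74, H2-Aa, H2-Ab1, H2-Eb1, H2-DMa, H2-DMb2 and H2-Oa, but not for H2-DMb1, H2-Ob and Ciita.

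The first comparison asked how class II expression depends on Xbp1, the transcription factor that drives the unfolded protein response in antibody-secreting cells. In Xbp1-deficient PBs, the genes of the H2-DM editor moved apart, as H2-DMb1 and H2-DMb2 fell and H2-DMa rose. Of the classical chains, H2-Ab1 fell as well. A gene was called when its adjusted p was under 0.05 in limma on the log2 scale of TPM that had been scaled between libraries by the median of ratios, with Benjamini-Hochberg adjustment over all genes tested. By this rule, 3 of the 10 members were lower and 1 was higher, while of all 12125 genes tested 18% were lower and 10.3% were higher. The median log2 fold change was -0.265 over the members and 0.00414 over all genes. The p-values rest on the spread between libraries of the same group. This spread was pooled over the 3 PB genotypes, Bhlha15 CreER/CreER included, and drawn towards that of genes with a similar level. The study describes the 2 libraries of each of the 2 Xbp1 genotypes as independent experiments.

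H2-DMb1 had 46.6 and 45.0 TPM without Xbp1 against 88.2 and 90.8 TPM in the controls. This is a 2.26-fold lower level, with a log2 fold change of -1.17 ± 0.07 (SE, n = 2 libraries per group; limma adjusted p = 8.87e-06). For H2-DMb2, the values were 289 and 252 TPM against 426 and 433 TPM, 1.84-fold lower with a log2 fold change of -0.88 ± 0.09 (limma adjusted p = 0.000184). In both genes, the libraries of the groups did not overlap. H2-DMa, which encodes the partner alpha chain, had 433 and 416 TPM against 242 and 232 TPM in the controls, and was 1.55-fold higher (log2 fold change 0.63 ± 0.09, limma adjusted p = 0.00114). These 3 calls held under each of 11 alternatives for every gene, among them leaving out any of the 4 libraries compared. The ratio of H2-DMa to the sum of H2-DMb1 and H2-DMb2, which does not depend on scaling between libraries, was 1.29 and 1.40 in Xbp1-deficient PBs and lay between 0.398 and 0.535 in the 8 other libraries. Alpha and beta chain transcripts of the editor were thus in a different proportion in the PBs lacking Xbp1 than in any other group.

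H2-Ab1, the beta chain of the I-A molecule, had 4369 and 3835 TPM without Xbp1 against 5852 and 5962 TPM. It was 1.67-fold lower, with a log2 fold change of -0.74 ± 0.16 (limma adjusted p = 0.00935). The direction held under all 11 alternatives, but with any of the 4 libraries left out, the adjusted p rose to between 0.0556 and 0.136, and without the filter on low values it was 0.0585. H2-Aa, the alpha chain of the same molecule, had 7843 and 7143 TPM against 7738 and 7785 TPM, and the fit gave a log2 fold change of -0.26 with a 95% confidence interval from -0.66 to 0.14 that includes both no change and a 1.5-fold decrease. Under quantile normalization, H2-Aa was instead called higher, at 0.63 (limma adjusted p = 2.07e-06), and the cause was not tested. Accordingly, the ratio of H2-Aa to H2-Ab1 was 1.80 and 1.86 without Xbp1, and between 1.31 and 1.32 in the 4 other PB libraries. H2-Eb1 had 2919 and 2585 TPM against 2888 and 2847 TPM (log2 fold change -0.27, 95% confidence interval -0.58 to 0.04). The ratio of H2-Eb1 to H2-Aa was between 0.362 and 0.374 in all 6 PB libraries, so that only H2-Ab1 of the 3 classical chain genes shifted against the others in these ratios.

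The remaining members were not called. Cd74 had 20624 and 20871 TPM against 22481 and 21592 TPM, H2-Oa 58.9 and 52.9 TPM against 50.6 and 61.3 TPM, and H2-Ob 147 and 172 TPM against 164 and 157 TPM. Ciita had 21.1 and 18.0 TPM against 12.2 and 15.3 TPM. The 4 Ciita values did not overlap between the groups, yet the log2 fold change of 0.30 ± 0.14 did not pass the test (limma adjusted p = 0.148). The scaling matters for such values, because without it the median of all genes was 0.21 higher on the log2 scale in Xbp1-deficient PBs, and 71.6% instead of 36.4% of the called genes were higher. The 4 called members had the same direction with and without scaling.

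**Figure D2:**
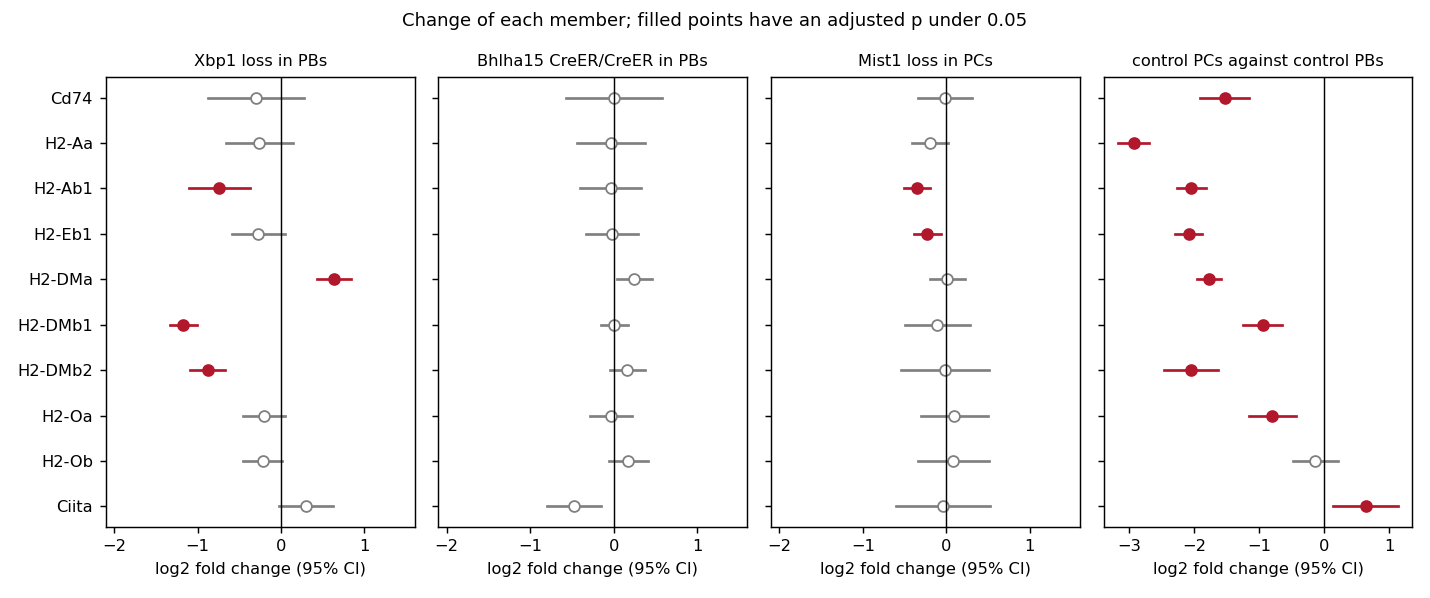
Log2 fold change (horizontal axis) of each member (vertical axis) in 4 comparisons, with 95% confidence intervals from limma. Filled points mark an adjusted p under 0.05. The panels for mutants share an axis range, and that for control PCs against control PBs has a wider one. Called members lie on both sides of 0 after Xbp1 loss, none is called in Bhlha15 CreER/CreER PBs, 2 are called lower without Mist1 and 8 are called lower in control PCs.

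The second comparison set Bhlha15 CreER/CreER PBs against the same Xbp1 fl/fl control libraries. No member was called by limma, and of the 12125 genes tested 0.272% were lower and 0.0495% were higher. At an unadjusted p under 0.05, 2 of the 10 members and 10.4% of all genes passed. The members' median log2 fold change was -0.00703 against 0.00437 over all genes. H2-Aa, with 7297 and 7448 TPM, and H2-Ab1, with 5555 and 5642 TPM, were near the controls. Their log2 fold changes of -0.03 and -0.03 had 95% confidence intervals from -0.43 to 0.37 and from -0.40 to 0.33, respectively. The unadjusted p was under 0.05 for H2-DMa, which had 272 and 275 TPM (log2 fold change 0.25 ± 0.09, limma adjusted p = 0.387), and for Ciita, which had 10.8 and 8.32 TPM (log2 fold change -0.48 ± 0.14, limma adjusted p = 0.280). In the deposited values neither gene's libraries overlapped with those of the controls, but the same held for H2-Aa, H2-Ab1, H2-Eb1, H2-DMb2 and H2-Ob. How many of all genes did so was not counted.

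The mutant PBs were also compared directly. Relative to Bhlha15 CreER/CreER PBs, 4 members were lower in Xbp1-deficient PBs and 2 were higher, while 17.8% of all genes tested were lower and 9.34% were higher. The members' median log2 fold change was -0.277, and that of all genes 0.0135. H2-DMb1 (log2 fold change -1.18 ± 0.07, limma adjusted p = 8.74e-06), H2-DMb2 (-1.04 ± 0.09, limma adjusted p = 7.13e-05) and H2-Ab1 (-0.70 ± 0.16, limma adjusted p = 0.0121) were lower again, and H2-DMa was higher (0.38 ± 0.09, limma adjusted p = 0.0143). Ciita was 1.72-fold higher in PBs lacking Xbp1 (0.78 ± 0.14, limma adjusted p = 0.00409), a call that held under all 11 alternatives. H2-Ob, with 147 and 172 TPM against 174 and 178 TPM, was 1.31-fold lower (-0.39 ± 0.10, limma adjusted p = 0.0215). The call of H2-Ob held under 6 of the 11 alternatives. It was lost, among others, without scaling, where its log2 fold change was -0.14, without Bhlha15 CreER/CreER library 2 and without Xbp1-deficient library 1 (limma adjusted p = 0.155, 0.0851 and 0.136). That of H2-DMa was lost when either Xbp1-deficient library was left out (limma adjusted p = 0.0924 and 0.0503), and that of H2-Ab1 held under 7 of the 11 alternatives, with an adjusted p of up to 0.164.

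**Figure D3:**
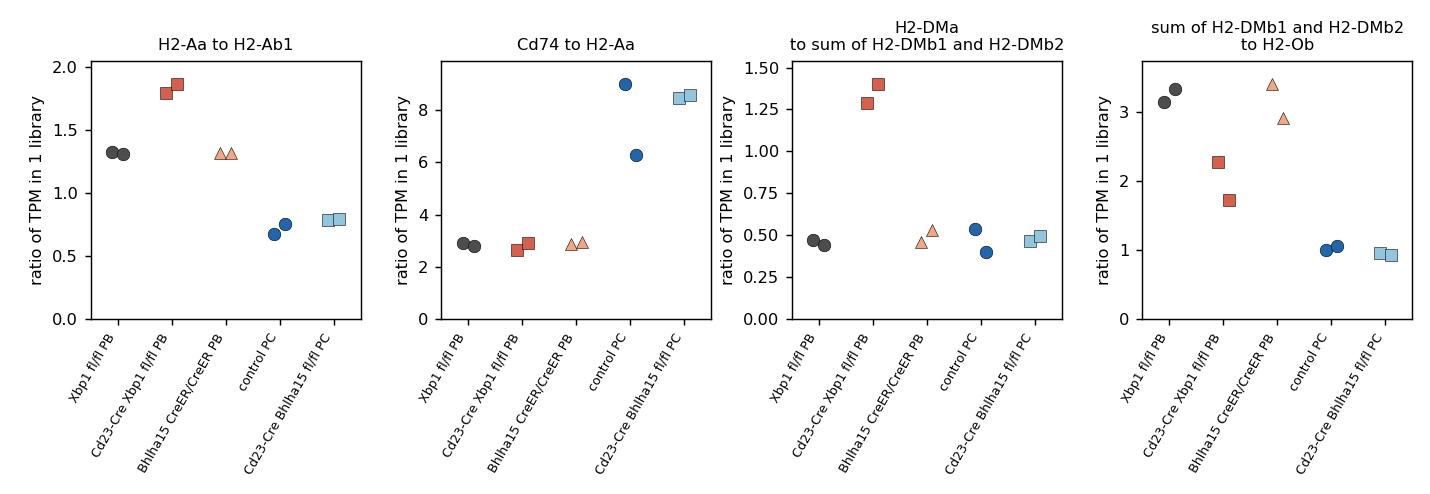
Ratios of TPM values within a library (vertical axes, starting at 0) for 4 pairs of members in the 5 groups (horizontal axes), with 1 point for each of the 2 libraries of a group. The ratios of H2-Aa to H2-Ab1 (1.80 and 1.86) and of H2-DMa to the H2-DMb genes (1.29 and 1.40) set apart the Xbp1-deficient PBs, and the others separate PBs from PCs.

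In PCs, the comparison asked which class II genes depend on Mist1, a bHLH factor of secretory cells. H2-Ab1 and H2-Eb1 were lower in Mist1-deficient PCs, by less than 1.5-fold, and no member was higher. Thus 2 of the 10 members were called lower, where 16.2% of all 12028 genes tested were lower and 13.3% were higher. The median log2 fold change was -0.0293 over the members and 0.0143 over all genes. H2-Ab1 had 1201 and 1206 TPM without Mist1 against 1493 and 1615 TPM in the controls (1.27-fold lower, log2 fold change -0.35 ± 0.06, limma adjusted p = 0.0121). H2-Eb1 had 614 and 620 TPM against 687 and 780 TPM (1.17-fold lower, -0.23 ± 0.06, limma adjusted p = 0.0470). H2-Aa, with 946 and 954 TPM against 1001 and 1214 TPM, did not pass the test (-0.20 ± 0.09, limma adjusted p = 0.138), although its libraries did not overlap either.

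These calls rest on few libraries. When either library of Mist1-deficient PCs was left out, neither call held, and fewer of all genes were called as well. The call of H2-Eb1 held under only 5 of 10 alternatives. The control PC libraries differed from each other in most members: H2-DMb2 was at 86.1 and 147 TPM, H2-Ob at 128 and 196 TPM, H2-Oa at 28.4 and 42.4 TPM and Ciita at 17.5 and 30.6 TPM, whereas the values of the Mist1-deficient PCs, such as 111 and 109 TPM for H2-DMb2 and 21.8 and 22.5 TPM for Ciita, lay between them. The library with the higher values also had more RNA of 9 B cell markers, which summed to 1696 TPM against 1418 TPM in the other control library, including 89.7 against 49.0 TPM for the complement receptor gene Cr2. It had less neutrophil RNA (438 against 935 TPM). The part of B cells and neutrophils in the result was not tested. With only this library as control, the fitted log2 fold changes were -0.37 for H2-DMb2, -0.16 for H2-Oa, -0.19 for H2-Ob and -0.41 for Ciita. With only the other, they were 0.34, 0.35, 0.36 and 0.33, respectively, so that their signs turned. In these fits the spread comes from the 2 Mist1-deficient libraries alone, which differed less from each other than the control libraries did, and the lone control is assumed to vary like them. The fitted change of H2-Ab1 was -0.37 and -0.32, respectively.

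Control PCs and control PBs were compared to describe the members in both cell populations, which differ in stage, culture, sorting gate and floxed allele at the same time, and these cannot be told apart. The control PB libraries are those used above. In the control PCs, 8 of the 10 members were lower, H2-Ob was not called and Ciita was higher. Of all 13230 genes tested, 38.4% were lower and 37.6% were higher. The members' median log2 fold change was -1.65, and that of all genes 0.00643. By the stricter rule of a change above 3-fold with a mean above 5 TPM in the higher group, 5 members were lower, and 6.19% of all genes. In bulk samples such as these, fewer cells that express a gene and less RNA per cell cannot be told apart.

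H2-Aa differed most, with 1001 and 1214 TPM in control PCs against 7738 and 7785 TPM in control PBs (7.62-fold lower, log2 fold change -2.93 ± 0.11, limma adjusted p = 4.57e-08). H2-Eb1 was 4.24-fold lower (-2.08 ± 0.09, limma adjusted p = 1.10e-07) and H2-Ab1 4.12-fold lower (-2.04 ± 0.10, limma adjusted p = 1.76e-07). The order of the I-A chains was therefore turned, since H2-Aa exceeded H2-Ab1 in all 6 PB libraries and was below it in all 4 PC libraries, where the ratio of H2-Aa to H2-Ab1 was between 0.671 and 0.791. Cd74 had 9000 and 7616 TPM against 22481 and 21592 TPM and was 2.88-fold lower (-1.53 ± 0.17, limma adjusted p = 2.86e-05). The invariant chain was still among the 7 most highly expressed genes of every PC library. Its ratio to H2-Aa was between 6.27 and 8.99 in PCs and between 2.63 and 2.96 in PBs.

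Among the editor and inhibitor genes, H2-DMb2 was 4.13-fold lower (-2.05 ± 0.18, limma adjusted p = 7.75e-06), H2-DMa 3.41-fold lower (-1.77 ± 0.08, limma adjusted p = 1.47e-07) and H2-DMb1 1.92-fold lower (-0.94 ± 0.13, limma adjusted p = 0.000144). H2-Oa, the alpha chain of the inhibitor, had 28.4 and 42.4 TPM against 50.6 and 61.3 TPM and was 1.73-fold lower (-0.79 ± 0.16, limma adjusted p = 0.00140). H2-Ob, its beta chain, had 128 and 196 TPM in control PCs, on either side of the 164 and 157 TPM in control PBs, with a log2 fold change of -0.13 (95% confidence interval -0.48 to 0.21). The sum of H2-DMb1 and H2-DMb2 was between 1.72 and 3.40 times H2-Ob in the 6 PB libraries, and between 0.923 and 1.06 times H2-Ob in the 4 PC libraries. The editor and inhibitor beta chain transcripts were thus close to parity in all PC libraries, with and without Mist1. The direction and call of the 8 lower members held under all 11 alternatives.

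Ciita was lowest in Bhlha15 CreER/CreER PBs, with 10.8 and 8.32 TPM, followed by 12.2 and 15.3 TPM in control PBs, 21.1 and 18.0 TPM in Xbp1-deficient PBs, 21.8 and 22.5 TPM in Mist1-deficient PCs, and 17.5 and 30.6 TPM in control PCs. Control PCs overlapped both with Xbp1-deficient PBs and with Mist1-deficient PCs, whereas each of the other neighbours in this order was separated. Control PCs exceeded control PBs 1.56-fold (log2 fold change 0.65 ± 0.22, limma adjusted p = 0.0239), but this call was lost without the control PC library with the higher value (0.28, limma adjusted p = 0.187), without the first control PB library (0.50, limma adjusted p = 0.140) and in a model of only the 4 libraries compared (0.63, limma adjusted p = 0.0655). Ciita and its target genes did not move in parallel between PBs and PCs. The ratio of H2-Ab1 to Ciita was between 389 and 678 in control and Bhlha15 CreER/CreER PBs, 207 and 213 in Xbp1-deficient PBs, and between 52.8 and 85.2 in PCs.

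Whether the Bhlha15 mutations acted differently on the members in PBs and PCs was tested by the interaction term over all 10 libraries. No member passed in limma, at an adjusted p under 0.05, where 1.94% of the 13230 genes tested were lower and 4.17% higher, and none had an unadjusted p under 0.05, which 22% of all genes had. The largest differences were those of Ciita, at -0.45 (95% confidence interval -1.15 to 0.26), and H2-Ab1, at 0.30 (-0.01 to 0.61). These intervals include both no difference and differences as large as those measured within PCs.

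The known regulators of Ciita were listed to set their levels beside it. Of the 10 genes reported, Zbtb32 did not pass the filter on low values in PBs. None of the other 9 was called by limma after Xbp1 loss, where 18% of all genes were lower and 10.3% were higher. An unadjusted p under 0.05 was found for 2 of them and for 39.5% of all genes. The fitted change was above 0 for 8 of the 9 and below 0 for 1. Their median log2 fold change was 0.181, against 0.00414 over all genes. The study describes Irf4, Prdm1 and Ikzf1 as moderately higher in these PBs and Pax5 as equally low in both genotypes. Prdm1, which encodes the Ciita repressor Blimp1, had 239 and 296 TPM without Xbp1 against 205 and 175 TPM in the controls (0.28 ± 0.14, limma adjusted p = 0.164). None of these 9 genes was called by limma in Bhlha15 CreER/CreER PBs, nor did any have an unadjusted p under 0.05, which 10.4% of all genes had.

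In PCs lacking Mist1, Irf4 was higher (947 and 886 TPM against 688 and 739 TPM, 0.38 ± 0.06, limma adjusted p = 0.00952), and Zbtb32, a repressor that cooperates with Blimp1, was lower (7.52 and 9.23 TPM against 13.2 and 12.8 TPM, -0.62 ± 0.13, limma adjusted p = 0.0212). Prdm1 had 237 and 203 TPM against 175 and 198 TPM (0.25 ± 0.09, limma adjusted p = 0.0793). Between control PCs and control PBs, 5 of the 10 regulators were higher and 1 was lower, beside 37.6% and 38.4% of all genes. Pax5, an activator of B cell genes, was at 28.8 and 44.0 TPM in control PCs against 10.5 and 11.6 TPM in control PBs (1.57 ± 0.16, limma adjusted p = 1.47e-05). Spib (1.69 ± 0.23), Ebf1 (0.69 ± 0.10), Irf1 (1.36 ± 0.05) and Zbtb32 (3.48 ± 0.53) were higher as well, each with a limma adjusted p of 0.000241 or less. The interferon regulatory factor gene Irf8 was lower, at 62.7 and 83.8 TPM against 219 and 218 TPM (-1.70 ± 0.11, limma adjusted p = 9.91e-07). Prdm1, with 175 and 198 TPM in control PCs and 205 and 175 TPM in control PBs, Irf4, Spi1 and Ikzf1 were not called.

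**Figure D4:**
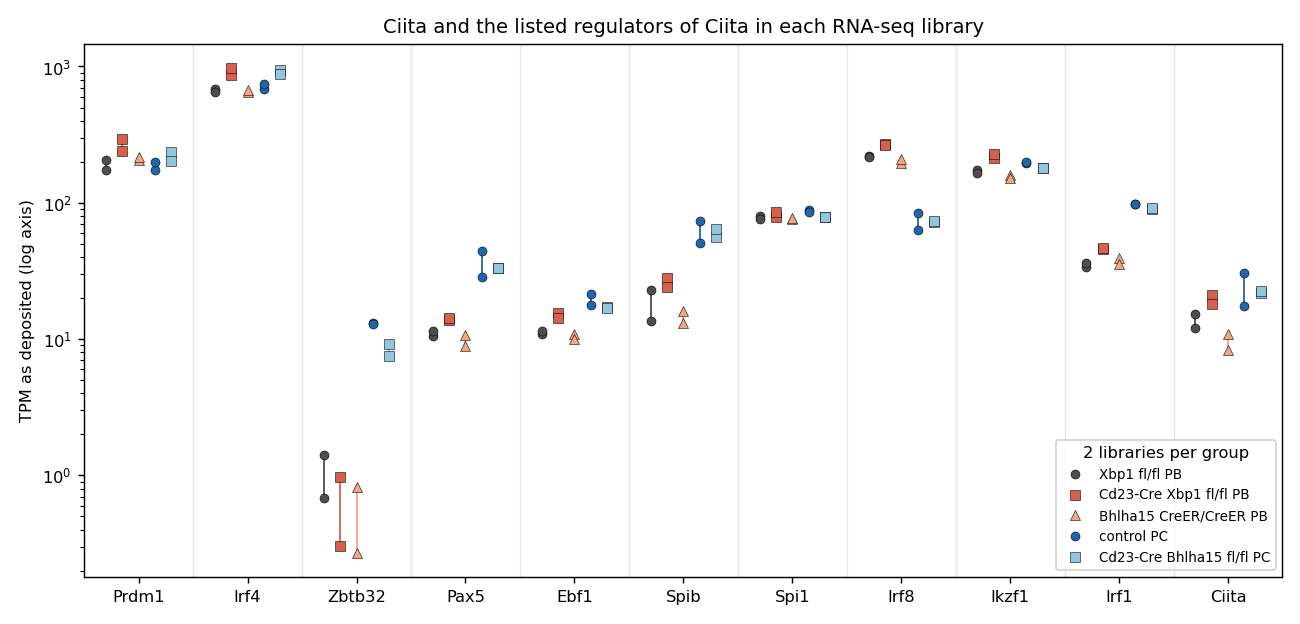
Deposited TPM values (vertical log axis) of 10 listed regulators of Ciita and of Ciita itself (horizontal axis) in each of the 10 libraries, with both libraries of a group joined by a line. Prdm1 lies between 175 and 296 TPM in all groups, and Pax5, Spib and Irf1 are higher in all PC libraries than in all PB libraries.

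The complex that recruits Ciita was represented by 7 genes, all of which were tested. After Xbp1 loss, Rfxap, an RFX subunit without which class II genes are not transcribed, was lower (log2 fold change -0.56 ± 0.10, limma adjusted p = 0.00362), and the other 6 were not called. In PCs lacking Mist1, the NF-Y subunit gene Nfyb was lower (-0.33 ± 0.06, limma adjusted p = 0.0144). Control PCs had more Rfx5 (1.37 ± 0.09, limma adjusted p = 1.22e-06), Rfxank, Creb1 and Nfyc and less Nfya and Nfyb than control PBs. Thus 4 of the 7 were higher and 2 were lower, beside 37.6% and 38.4% of all genes.

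Genes that act on class II molecules after their synthesis were given by a list of 11. After Xbp1 loss, 6 were lower and 1 was higher, beside 18% and 10.3% of all genes. Ifi30, a thiol reductase that unfolds antigens in lysosomes, was lower, with 470 and 443 TPM against 875 and 847 TPM (-1.12 ± 0.11, limma adjusted p = 0.000125). The cathepsin genes Ctss, Ctsb and Ctsd, the gene of the protease Sppl2a that clears the remnant of the invariant chain, and March8, a ubiquitin ligase, were lower as well, with log2 fold changes between -0.61 and -0.47. Cathepsin L (Ctsl) was higher (0.36 ± 0.09, limma adjusted p = 0.0206). The median log2 fold change of the list was -0.469, against 0.00414 over all genes. In PCs lacking Mist1, March8 was higher (15.1 and 14.8 TPM against 7.24 and 6.99 TPM, 1.08 ± 0.10, limma adjusted p = 0.00227) and so was Ctsb (0.40 ± 0.08, limma adjusted p = 0.0171). Between control PCs and control PBs, 10 of the 11 were lower, beside 38.4% of all genes, most of all Ctsl (-3.18 ± 0.14, limma adjusted p = 1.06e-07). March1, the ubiquitin ligase known to remove class II from the surface of B cells, was the exception, with 14.7 and 23.2 TPM in control PCs against 1.65 and 1.77 TPM in control PBs (3.25 ± 0.20, limma adjusted p = 7.05e-07).

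**Figure D5:**
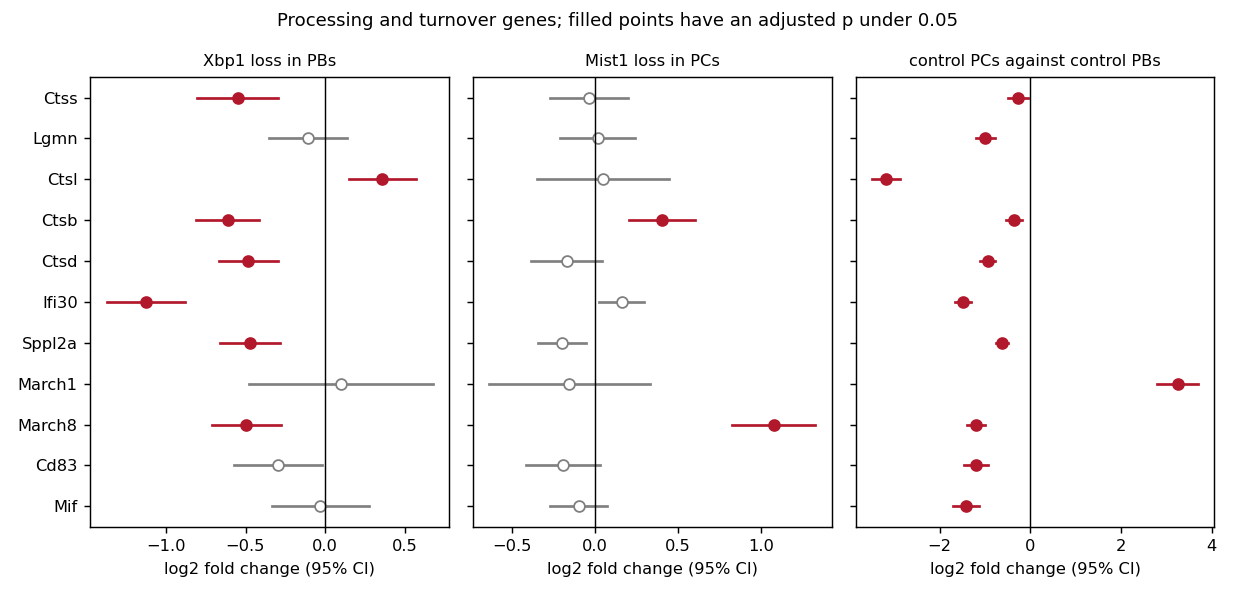
Log2 fold change with 95% confidence interval (horizontal axes, with a different range in each panel) of 11 genes of class II processing and turnover (vertical axis) in 3 comparisons. Filled points mark a limma adjusted p under 0.05. In the last panel, 10 genes lie below 0 and March1 lies above it.

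Other genes of the class II region were listed as neighbours, of which 8 of 9 were found and 7 were tested. H2-Eb2, a class II beta chain gene next to H2-Eb1, had 109 and 104 TPM without Xbp1 against 66.6 and 67.5 TPM in control PBs (0.46 ± 0.07, limma adjusted p = 0.00206), and the proteasome gene Psmb9 was lower (-0.39 ± 0.10, limma adjusted p = 0.0209). In PCs lacking Mist1, H2-Eb2 had 30.7 and 30.7 TPM against 58.8 and 57.3 TPM (-0.90 ± 0.07, limma adjusted p = 0.00160), a larger change than that of any member there. Btnl2, a further gene of the region, was lower in these PCs too, at 8.62 and 8.49 TPM against 16.9 and 14.8 TPM (-0.86 ± 0.12, limma adjusted p = 0.00556), as was Brd2 (-0.28 ± 0.07, limma adjusted p = 0.0361), and Psmb8 was higher (0.47 ± 0.06, limma adjusted p = 0.00392). Of 6 genes for costimulation, Icosl was higher without Xbp1 (7.86 and 9.13 TPM against 1.76 and 1.66 TPM, 2.04 ± 0.21, limma adjusted p = 0.000202). Without Mist1, Cd80 (-0.58 ± 0.12, limma adjusted p = 0.0174), Cd86 (-0.65 ± 0.14, limma adjusted p = 0.0199) and Cd274 (-0.39 ± 0.09, limma adjusted p = 0.0212) were lower in PCs.

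Binding of Mist1 had been mapped by Bio-ChIP-seq, in which Mist1 carrying a biotin tag is pulled down with streptavidin, in CD138+ PBs on day 4 of LPS stimulation, from mice with the genotype Rosa26 BirA/BirA, Bhlha15 fl/fl. These are other cells than those used for RNA-seq. The lists of 29413 and 30247 peaks, called by the authors in each experiment, hold positions without heights. They are shorter than the lists described in the study, so that the shares and absences given here hold for these lists only. All 10 members had a peak of both experiments within 10 kb of the gene, as had 80.8% of the coding genes tested in PBs and 54% of all coding genes. When the window was narrowed to 1 kb on either side of the gene's start, 6 members had such a peak (Cd74, H2-Aa, H2-Ab1, H2-DMb2, H2-Ob and Ciita), and 59% of the tested genes. The share of members was thus near that of the tested genes. Neighbouring members also share peaks in the 10 kb count. H2-DMa, H2-DMb1 and H2-DMb2 had the same peaks of both experiments, whose nearest start was that of H2-DMb2. Those at the start of H2-Ab1 also counted for H2-Aa and H2-Ob. The peaks of both experiments covered all 3 starts of coding transcripts of H2-Aa at chr17:34424622-34425392, and 3 of the 5 starts of Ciita at chr16:10487632-10489524. At H2-DMb2, peaks of both experiments ended more than 1 kb before the start of its coding transcript at position 34282258. The peaks near the start of H2-Eb1 differed between the experiments, and no peak lay within 1 kb of the start of H2-DMb1 or H2-Oa.

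H2-Ab1 was called lower in Xbp1-deficient PBs and in Mist1-deficient PCs, but not in Bhlha15 CreER/CreER PBs (log2 fold change -0.03). Both calls were lost in fits with a library left out. The gene had peaks of both experiments near its start. The peak of experiment 1 (chr17:34399903-34401340) covered the start, and that of experiment 2 lay close behind it. Their overlap was chr17:34400620-34401338, where the whole peak of experiment 2 lay within an intron, 435 bases downstream of the nearest coding start. The central 300 bases of this overlap are given in the mm9 build, 5′ to 3′, with the letters CANNTG in capitals, the E-box to which bHLH factors bind.
H2-Ab1, chr17:34400829-34401128 (+ strand): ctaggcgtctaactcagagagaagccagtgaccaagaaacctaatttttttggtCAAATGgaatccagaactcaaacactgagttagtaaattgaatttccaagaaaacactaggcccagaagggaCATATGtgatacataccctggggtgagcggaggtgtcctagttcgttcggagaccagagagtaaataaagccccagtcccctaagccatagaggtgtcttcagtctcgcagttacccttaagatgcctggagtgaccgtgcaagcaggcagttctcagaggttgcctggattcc
It holds 2 E-boxes on either strand. Of the central windows of all 25635 overlaps, 89.2% hold at least 1, and the corresponding window at Ciita holds none.

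The genes whose pattern over the 10 libraries was most like that of 3 members were found by the root mean square difference of log2 scaled TPM after centring each gene on its mean. Over 13229 other genes, the 3 closest to Cd74 were Ndc1, Rftn1 and Abhd8 (0.0816, 0.0970 and 0.103), those closest to H2-Aa were Lrp12, Samsn1 and Avpi1 (0.117, 0.135 and 0.143), and those closest to Ciita were Zfp59, Spice1 and Lyst (0.163, 0.164 and 0.179). For H2-Aa, the closest member was H2-Eb1 with 0.407, at rank 262. The closest member to Cd74 was H2-Ab1 with 0.330, at rank 789. To Ciita it was H2-Ob with 0.553, at rank 4830, and H2-Aa was the member farthest from Ciita with 1.81. The libraries within a population share stage and culture conditions.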

How the data were processed

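From mRNA reads trimmed with cutadapt, mapped to mm9 by STAR 2.4.2 and assigned to genes by featureCounts 1.5, the authors computed TPM without immunoglobulin and T cell receptor genes. The deposited TPM were the starting point here. PC files list 543 receptor rows, all at 0, which were left out. Peaks were deposited as positions, called by the authors with MACS against a B cell input, after alignment with Bowtie 1.0.0.

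Gene names were joined after removal of a suffix of unstated meaning that Cd74 and H2-Oa carry among 3537 names of the PB files. Scaling between libraries used the median of ratios (genes above 0 in all libraries fitted together), and log2 of scaled TPM plus 0.1 was fitted with limma 3.58.1 (R 4.3.3; lmFit, eBayes with trend) for genes that reached 1 TPM in 2 or more libraries. All fold changes are on this scale, which understates those of low genes. The 6 PB libraries formed a model, the 4 PC libraries another, and all 10 were fitted for the comparison of PCs with PBs and for the interaction. The authors used DESeq2 on counts, for which TPM cannot stand in. With 2 libraries a group, an exact permutation test cannot go below a two-sided p of 0.333, so none was run. The scripts were tested on simulated data. The members and lists were chosen with earlier results of these data known. A gene of the regulator list and a gene of the B cell marker list are not reported here. All members are named, as are the regulators of Ciita. From the other pathway lists, genes with a mean above 5 TPM and an adjusted p under 0.05 could be named. Only examples of these are given for PCs against PBs, and these lists are not described between the mutant PBs. Cell type markers are given as sums, and the few named among them were chosen after their values were seen. Peaks were intersected with bedtools 2.31.1 and GENCODE M1. Alternatives tried were quantile normalization, TPM without scaling, a pseudocount of 1 or 0.01, no filter, eBayes without trend, a model of only the libraries compared, each library left out, and windows of 1 and 50 kb or 50% overlap for peaks.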

Additional observations from a re-analysis of the deposited data

Results flagged for a closer look

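Over the listed genes, 3 changed differently with the Bhlha15 mutation in PBs than with the loss of Mist1 in PCs, by the interaction term in limma over all 10 libraries. The difference, PBs minus PCs on the log2 scale, was 0.61 ± 0.08 for H2-Eb2 (limma adjusted p = 0.00821), -1.10 ± 0.13 for March8 (limma adjusted p = 0.00516) and -4.54 ± 0.45 for Bhlha15 itself (limma adjusted p = 0.00337). H2-Eb2 was at 55.2 and 52.2 TPM in Bhlha15 CreER/CreER PBs against 66.6 and 67.5 TPM in their control, and at 30.7 and 30.7 TPM in Cd23-Cre Bhlha15 fl/fl PCs against 58.8 and 57.3 TPM. March8 was at 15.7 and 13.7 TPM in Bhlha15 CreER/CreER PBs against 14.7 and 15.8 TPM, and at 15.1 and 14.8 TPM in Cd23-Cre Bhlha15 fl/fl PCs against 7.24 and 6.99 TPM, so that the control PCs were the group set apart from the other libraries shown. The alleles and the controls of the PB and PC comparisons differ too, and their part was not tested.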

How the results depend on the processing

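No paired analysis was possible because the labels give no replicate numbers that tie libraries of different groups. Over the counts of called members and of members with a Mist1 peak, 75 of 83 values under other settings stayed within 1.5 times. With a library left out, which concerns called members only, 47 of 56 did. Where they did not, the cause was not tested. Under quantile normalization, 2 members were higher after Xbp1 loss, with H2-Aa at 0.63 (log2), beside 2511 of 12125 genes. A higher PB minus PC difference was called for 1 member and for 679 of 13230 genes. Without the trend in eBayes, 1 member was higher in Cd23-Cre Xbp1 fl/fl than in Bhlha15 CreER/CreER PBs, beside 821 of 12125 genes. In the same setting, 1 was lower without Mist1 in PCs, beside 1396 of 12028 genes. In control PCs 0 were higher than in control PBs, beside 4856 of 13230 genes. Without scaling, as without the filter on low values, 1 was lower without Mist1, beside 2047 of 12028 and 1666 of 17489 genes, respectively. In a model of only the libraries compared, 0 were higher in control PCs, beside 4744 of 12677 genes. With a library left out, the Xbp1 and Bhlha15 mutant PBs differed in 2 to 4 members that were lower and 1 to 2 that were higher, the loss of Mist1 lowered 0 to 6 and raised 0 to 4, and control PCs exceeded control PBs in 0 to 1.

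Signs turned in values that had not been called. Without scaling these were H2-Oa after Xbp1 loss (0.0025), Cd74 (-0.035) and H2-DMb1 (-0.038) in Bhlha15 CreER/CreER PBs, H2-Aa (0.022) and H2-Oa (0.078) between the mutant PBs, H2-DMa without Mist1 (-0.0043) and Cd74 in the PB minus PC difference (-0.0021). Under quantile normalization they were H2-Aa after Xbp1 loss (0.63), H2-Ab1 (0) and H2-DMb1 (-0.039) in Bhlha15 CreER/CreER PBs, H2-Aa (0.69) and H2-Eb1 (0.013) between the mutant PBs, and H2-Ob in control PCs against PBs (0.024). With a library left out, the log2 fold changes in Bhlha15 CreER/CreER PBs ranged from -0.10 to 0.12 for Cd74, -0.12 to 0.064 for H2-Aa, -0.12 to 0.058 for H2-Ab1, -0.11 to 0.083 for H2-Eb1, -0.016 to 0.030 for H2-DMb1 and -0.15 to 0.094 for H2-Oa. Without Mist1 in PCs they ranged from -0.17 to 0.14 for Cd74, -0.090 to 0.12 for H2-DMa, -0.35 to 0.14 for H2-DMb1, -0.37 to 0.34 for H2-DMb2, -0.16 to 0.35 for H2-Oa, -0.19 to 0.36 for H2-Ob and -0.41 to 0.33 for Ciita. For H2-Ob in control PCs against PBs the range was -0.41 to 0.15. The PB minus PC difference ranged from -0.15 to 0.15 for Cd74, -0.41 to 0.11 for H2-Oa, -0.15 to 0.34 for H2-DMb1, -0.19 to 0.52 for H2-DMb2 and -0.21 to 0.35 for H2-Ob.

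Over all genes, 2186 were lower and 1250 higher after Xbp1 loss, against 1357 and 3423 without scaling, while quantile normalization gave 2511 higher and leaving out a library gave as few as 1282 lower and 540 higher. The corresponding numbers between the mutant PBs were 2155 and 1132, 1266 and 3977, and 2325 higher, so that 34.4%, 75.9% and 55.6% of called genes were higher, with a median of all genes of 0.26 (log2) without scaling. The 33 lower and 6 higher genes in Bhlha15 CreER/CreER PBs became 74 and 12 without scaling, 63 and 12 under quantile normalization and 3 and 0 without Xbp1 fl/fl library 1. For Mist1 loss, 1953 lower and 1601 higher genes became 816 and 294 without Cd23-Cre Bhlha15 fl/fl library 2, and 844 were higher without the trend. The 257 and 552 genes of the PB minus PC difference became 32 and 119 without Cd23-Cre Bhlha15 fl/fl library 1, 96 and 227 without the trend and 529 lower under quantile normalization. In control PCs against PBs, the median of all genes was 0.12 without scaling.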
